A study of Mus musculus and Homo sapiens with 24 samples.

Results

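The first day of differentiation was compared between a human and a mouse myoblast line, LHCN-M2 and C2C12, gene by gene. For each gene the log2 change from day 0 to day 1 was taken within each line, and the change in C2C12 was subtracted from the change in LHCN-M2; this difference is tested as an interaction. Genes were members if their symbol, with case ignored, occurred once in each of the deposited tables. That held for 16608 symbols, of 58735 gene rows in the LHCN-M2 table and 56748 in the C2C12 table, and 10953 of them had enough counts in both lines to be tested. A shared symbol is not an orthology table, and human spelling is used below for both species. LHCN-M2 is a human skeletal myoblast line immortalised with TERT and CDK4, and C2C12 is a mouse skeletal myoblast line. The groups used were LHCN-M2 day 1, LHCN-M2 day 0, C2C12 day 1 and C2C12 day 0, with 4 libraries each (16 of the 24 in the series), all with the genotype label control. Each line is 1 cell line, the culture media of either day are not given in the labels, and the labels do not say that the libraries of a group came from separate cultures. Each p-value is thus judged against variation among libraries that may be technical repeats. Species, immortalisation and culture differ together between the lines and cannot be told apart.

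Myoblasts are proliferating muscle precursors. When growth signals are withdrawn they leave the cell cycle, raise MYOG, the basic helix-loop-helix regulator of terminal differentiation that acts after MYOD1 and MYF5, and then build sarcomeres and fuse into myotubes. ID proteins hold them back by binding the partners of the MYOD family, while insulin-like growth factor signalling, amino acid supply and lipid synthesis change in parallel.

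Totals per library were 40403483 to 48546621 counts in LHCN-M2 day 1, 37460225 to 43446757 in LHCN-M2 day 0, 38243536 to 43827517 in C2C12 day 1 and 32795699 to 39597995 in C2C12 day 0. Levels below are CPM, counts scaled to a common library total, with the SD over 4 libraries where a mean is given. Myoblast markers (10 genes, among them DES, MYOD1 and CDH15; PAX7 had no count in LHCN-M2 and 15 and 6 in C2C12 day 1 and day 0) summed to 3030 to 3503 CPM in LHCN-M2 day 1 and 1426 to 1826 in day 0, and to 723 to 755 CPM in C2C12 day 1 and 534 to 553 in day 0. Of the defining markers of adipocytes, immune and endothelial cells, 8 of 10, 8 of 9 and 4 of 8 genes were under 1 CPM in LHCN-M2 day 1, and 6, 7 and 8 were in C2C12 day 1. Adipocyte markers nevertheless summed to 88.1 to 92.4 CPM in C2C12 day 1 and 139.9 to 159.8 in day 0, most of it LPL, a lipase (66.6 and 117 CPM), and to at most 9.86 in LHCN-M2. Immune markers summed to at most 4.72 CPM in LHCN-M2 and 24.7 in C2C12, and endothelial markers to at most 22.4 and 1.31. Bone and cartilage markers summed to 125 to 135 CPM in LHCN-M2 day 1 and 205 to 229 in day 0, where ALPL, alkaline phosphatase, had 26.4 and 124, and to 102 to 110.5 CPM in C2C12 day 1 and 84.6 to 99.96 in day 0. Smooth muscle markers summed to 422 to 538 CPM in C2C12 day 1 and 390.0 to 418 in day 0, and neural markers to 374 to 403 and 239 to 287, where the LHCN-M2 libraries reached at most 9.23 and 18.0; their part in the results was not tested. In bulk RNA, fewer cells of a kind and less RNA per cell cannot be told apart. Replicate 2 of LHCN-M2 day 0 stood apart from its group, with chi-square values per degree of freedom of up to 171.2 against another library of that group, where pairs within the other groups reached at most 26.1. Where a call or a count printed below changed without it by over 1.5 times or across the threshold, the value without it is given.

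Many genes changed in both lines, nearly as often in opposite directions as in the same one. On day 1, 3121 genes (28.5% of the 10953 tested) were higher and 3870 (35.3%) lower than on day 0 in LHCN-M2 (63.8% in all), and 3485 (31.8%) were higher and 2360 (21.5%) lower in C2C12 (53.4% in all; edgeR quasi-likelihood test, adjusted p under 0.05). The difference between the lines passed the same threshold for 2701 genes with a more positive change in LHCN-M2 (24.7%) and for 3908 with a more negative one (35.7%), 60.3% of the genes in all. Of 3989 genes called in both lines, 1082 were higher in both (9.88% of those tested), 964 lower in both (8.8%), 703 were higher in LHCN-M2 and lower in C2C12 (6.42%), and 1240 were lower in LHCN-M2 and higher in C2C12 (11.3%). Same-sign calls made up 51.3% of the genes called in both, which were 57.1% of the genes called in LHCN-M2 and 68.2% of those called in C2C12. These calls, and the SEs below, use 1 spread per gene over both lines. The common coefficient of variation among libraries was 0.178 in LHCN-M2 alone, 0.109 in C2C12 alone and 0.115 in the joint fit. With each line fitted alone, 2790 genes were higher and 3444 lower in LHCN-M2, and 3924 were higher and 2739 lower in C2C12. C2C12 then had more calls than LHCN-M2. With normalization factors computed on matched symbols alone, the opposite calls were 887 and 976, so that the share higher in LHCN-M2 was 47.6%, where it was 36.2% with factors from each whole table; that scaling moved the median difference by 0.099 on the log2 scale. Size separated the lines too: 1953 called genes had moved at least 2-fold in LHCN-M2 and 910 in C2C12. Across the 10953 genes, the changes of the lines had a Spearman rho of 0.06 and a Pearson r of 0.13, as a description over genes that are not independent. The median change was -0.06 in LHCN-M2, 0.06 in C2C12 and -0.13 for the difference. At a threshold of at least 2-fold in each line, 78 genes were higher in LHCN-M2 and lower in C2C12, 57 were lower in LHCN-M2 and higher in C2C12, 148 were higher in both and 54 were lower in both.

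**Figure D1:**
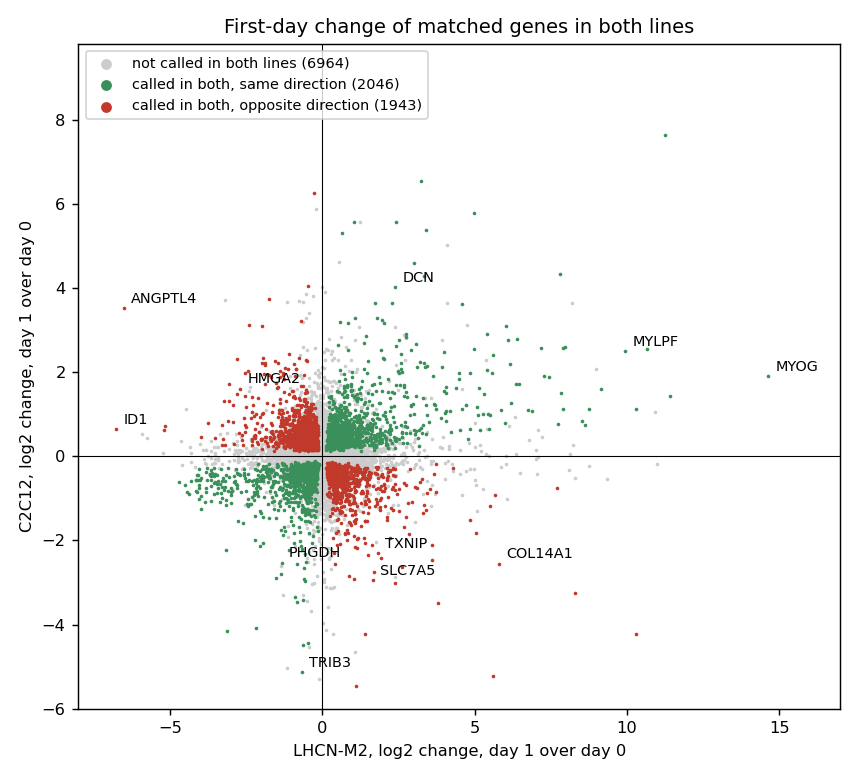
Each point is 1 of the 10953 tested genes, with the fitted log2 change of day 1 over day 0 in LHCN-M2 on the horizontal axis and in C2C12 on the vertical axis. The 2046 genes called in both lines with the same sign fill the upper right and lower left, and the 1943 called with opposite signs fill the other quadrants; the change of MYOG in LHCN-M2 is fitted against 0 counts and is not a fold.

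Genes that went up in the human line and down in the mouse line were led by a matrix gene, a chemokine, nutrient handling genes and clock genes. The 10 with the largest smaller change were COL14A1, CXCL12, DBP, TXNIP, SLC7A5, ANK2, SLC7A11, TRAPPC6A, LPAR4 and PER3, among 373 such genes that also reached 10 CPM in each line with no overlap of the days. COL14A1, a fibril-associated collagen, had 196, 195, 211 and 213 CPM in LHCN-M2 on day 1, against 3.00, 2.94, 5.63 and 3.13 CPM on day 0. In C2C12 it had 1.71, 2.52, 2.02 and 3.63 CPM on day 1, against 12.5, 13.7, 16.8 and 14.5 CPM on day 0. No overlap of the days was a condition of the choice, and the difference of the log2 changes was 8.34 ± 0.28 (SE; adjusted p = 1.22e-17).

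TXNIP (chr1:145992435-145996600 on GRCh38, minus strand) encodes an arrestin-like protein that limits glucose uptake. It was counted at 408, 388, 429.9 and 394.5 CPM in LHCN-M2 day 1, against 108, 112, 131 and 110.1 CPM in day 0. C2C12 mirrored this, with 79.3, 84.4, 70.4 and 79.7 CPM on day 1, against 387, 385, 406 and 377 CPM on day 0. The changes were 1.82 ± 0.07 in LHCN-M2 and -2.31 ± 0.07 in C2C12, and the difference was 4.12 ± 0.10 (adjusted p = 5.85e-20). CXCL12, the chemokine ligand of CXCR4, had 18.7, 18.4, 22.6 and 16.5 CPM in LHCN-M2 day 1, against 4.97, 3.47, 3.33 and 4.42 CPM in day 0. The mouse line held 287, 295, 307 and 246 CPM on day 1, against 1047, 1089, 1176 and 1077 CPM on day 0, and the difference was 4.18 ± 0.15 (adjusted p = 2.39e-17).

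Both nutrient transporters of this group import amino acids. SLC7A5 (chr16:87830023-87869488, minus strand), the light chain of the large neutral amino acid transporter, had 487, 455, 523 and 501 CPM in LHCN-M2 on day 1, against 165, 136, 151 and 169 CPM on day 0. In the mouse line the values were 33.4, 32.7, 33.97 and 31.1 CPM on day 1, against 239, 265, 257 and 248 CPM on day 0. Its log2 changes differed between the lines by 4.60 ± 0.11 (adjusted p = 3.74e-20). SLC7A11 (chr4:138164097-138242349, minus strand), the cystine importer, varied more: 113, 133, 119 and 125 CPM in LHCN-M2 day 1 against 49.7, 32.2, 58.5 and 60.65 CPM in day 0, and 19.9, 40.3, 36.1 and 11.02 CPM in C2C12 day 1 against 79.5, 96.25, 88.2 and 76.2 CPM in day 0. Its difference was 2.95 ± 0.37 (adjusted p = 2.42e-07).

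Among the other genes of this kind, DBP and PER3 belong to the output and the core of the circadian clock. DBP changed by 1.94 ± 0.25 in LHCN-M2 and by -2.41 ± 0.24 in C2C12, and PER3 by 1.53 ± 0.12 and -1.19 ± 0.11 in the same order of lines. ANK2, an ankyrin that ties membrane proteins to the cytoskeleton, had a difference of 3.57 ± 0.23, and LPAR4, a lysophosphatidic acid receptor, one of 3.49 ± 0.21. TRAPPC6A, a subunit of a vesicle tethering complex, differed by 3.16 ± 0.25.

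Genes that went down in the human line and up in the mouse line were led by a secreted lipase inhibitor, a semaphorin and its receptor family, and growth-linked regulators. The 10 named by the same ranking, of 814 eligible, were ANGPTL4, SEMA7A, ARHGAP22, PLXNA2, HMGA2, KLF2, TNFRSF12A, CORO2B, ETV4 and CTNNAL1. ANGPTL4 (chr19:8363289-8374373, plus strand), a secreted inhibitor of lipoprotein lipase, had 1.51, 1.58, 1.38 and 0.958 CPM in LHCN-M2 day 1, against 93.2, 205, 98.4 and 100.1 CPM in day 0. C2C12 had 56.5, 52.9, 51.4 and 46.3 CPM on day 1, against 4.38, 5.70, 3.85 and 4.21 CPM on day 0. The high human day 0 value is replicate 2, the library that stood apart. The difference was -10.02 ± 0.33 (adjusted p = 1.22e-17), and -9.65 without that library.

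HMGA2 (chr12:65824131-65966295, plus strand) encodes a chromatin architectural protein of proliferating and embryonic cells. LHCN-M2 had 59.5, 64.8, 49.9 and 58.3 CPM of it on day 1, against 370.0, 312, 400.1 and 410.1 CPM on day 0. C2C12 had 73.8, 81.2, 71.0 and 75.4 CPM on day 1, against 22.9, 23.7, 25.4 and 26.9 CPM on day 0. The difference was -4.29 ± 0.13 (adjusted p = 1.01e-18). SEMA7A, a membrane-anchored semaphorin, had 125, 116, 120.1 and 124 CPM in LHCN-M2 day 1 against 458, 442, 414 and 447 CPM in day 0, and 45.2, 41.6, 49.3 and 43.3 CPM in C2C12 day 1 against 8.03, 10.3, 11.54 and 10.3 CPM in day 0. PLXNA2, a receptor subunit for other semaphorins, moved in the same directions, by -1.68 ± 0.15 in LHCN-M2 and 1.87 ± 0.15 in C2C12. TNFRSF12A, the receptor of the cytokine TWEAK, changed by -1.47 ± 0.07 in LHCN-M2 and 1.61 ± 0.08 in C2C12.

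The remaining genes of this kind act in signalling and the cytoskeleton. ETV4, an ETS factor induced by fibroblast growth factor signalling, changed by -2.52 ± 0.17 in LHCN-M2 and 1.44 ± 0.16 in C2C12, and KLF2, a zinc finger factor, by -1.53 ± 0.15 and 1.75 ± 0.16 in the same order. ARHGAP22, a GTPase activator for RAC, differed by -3.70 ± 0.15, and CORO2B, an actin-binding coronin, by -3.11 ± 0.18. CTNNAL1, a protein related to alpha-catenin, differed by -3.29 ± 0.13. For all 10 genes, no overlap of the days in either line was a condition of the choice.

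**Figure D2:**
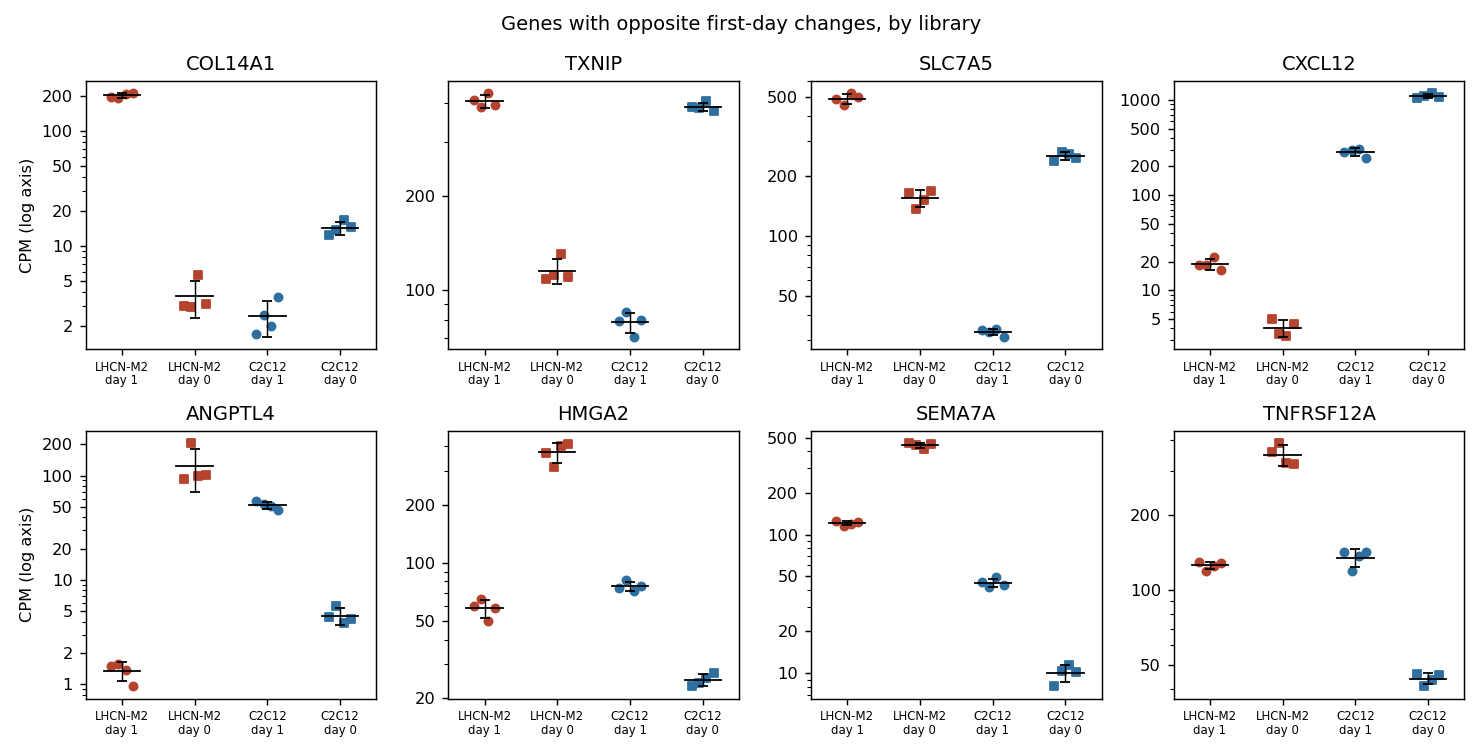
CPM on a log axis in each library of LHCN-M2 day 1, LHCN-M2 day 0, C2C12 day 1 and C2C12 day 0 for 8 genes; points are libraries, the bar is the mean and the whiskers the SD (n = 4). The upper 4 genes are higher on day 1 in LHCN-M2 and lower in C2C12, the lower 4 the reverse, and ANGPTL4 shows 1 high library (205 CPM) in LHCN-M2 day 0.

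The largest coordinated difference upward was in the genes of the ATF4 programme, which cells switch on when amino acids run short: it fell throughout in the mouse line and was split in the human line. Of 41 listed genes 31 were tested. All 31 were lower on day 1 in C2C12 (background 21.5%), with a median change of -1.99, while in LHCN-M2 8 were higher and 17 lower (median -0.38). The difference was positive and passed the threshold for 29 of 31 (background 24.7%) and for none in the negative direction, with a median of 1.80 beside -0.13 over all genes tested. The genes that were higher in LHCN-M2 and lower in C2C12 numbered 8: SLC7A5, SLC7A11, SLC3A2, SLC6A9, NUPR1, ATF3, DDIT4 and SESN2.

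TRIB3 (chr20:362835-397559, plus strand), a pseudokinase that feeds back on ATF4, had 4.34, 2.51, 2.81 and 2.87 CPM in LHCN-M2 on day 1, against 4.65, 6.28, 4.08 and 4.82 CPM on day 0. C2C12 had 4.15, 4.10, 2.65 and 4.81 CPM on day 1, against 143, 152, 129.7 and 123 CPM on day 0. The days did not overlap in C2C12 and did overlap in LHCN-M2, and the change was -0.67 ± 0.17 in LHCN-M2 and -5.13 ± 0.17 in C2C12. CHAC1, which degrades glutathione, followed it, with 1.62 ± 0.349 CPM in LHCN-M2 day 1 against 2.56 ± 0.422 in day 0, and 4.68 ± 1.09 in C2C12 day 1 against 105 ± 9.40 in day 0.

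PSAT1, an enzyme of serine synthesis, did not pass the test in LHCN-M2 (0.08 ± 0.07, adjusted p = 0.33) and changed by -1.72 ± 0.07 in C2C12. PHGDH, the first enzyme of that pathway, and MTHFD2, a mitochondrial folate enzyme, fell in both lines, with PHGDH at -1.33 ± 0.12 in LHCN-M2 and -2.53 ± 0.12 in C2C12 and MTHFD2 at -1.35 ± 0.09 and -2.80 ± 0.10. SLC3A2, the heavy chain that pairs with SLC7A5 and SLC7A11, had 233 ± 19.9 CPM in LHCN-M2 day 1 and 154 ± 20.9 in day 0, and 89.7 ± 4.59 in C2C12 day 1 and 383 ± 10.3 in day 0. ASNS, asparagine synthetase, was counted at 0.499 ± 0.0979 CPM in LHCN-M2 day 1 and 0.643 ± 0.348 in day 0, and at 46.8 ± 6.58 CPM in C2C12 day 1 and 602 ± 23.2 in day 0. Whether the human value is a low level or reads lost in the counting cannot be told apart here, so it is no measure of the gene in LHCN-M2. For ATF4 itself the change was 0.26 ± 0.11 in LHCN-M2, which did not pass the test (adjusted p = 0.0507), and -1.29 ± 0.12 in C2C12. Without replicate 2 of LHCN-M2 day 0, in which ATF4 had 295 CPM beside 176 to 192.5 in the other libraries of that day, it passed in LHCN-M2 at 0.48 ± 0.07, and 9 genes of the list were then of opposite sign. These counts are messages, and the programme is also controlled through translation of ATF4, which was not measured.

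To show the element through which this programme is known to be read, the 100 bases before the RefSeq start of the mouse Slc7a11 and Asns genes are printed (GRCm38.p6, 5′ to 3′ on the gene strand), with matches to the C/EBP-ATF element TGATGNAA, on either strand, in capitals.
Slc7a11 (chr3:50443614-50443713, minus strand): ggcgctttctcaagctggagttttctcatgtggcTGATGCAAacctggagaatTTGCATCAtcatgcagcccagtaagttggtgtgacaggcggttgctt
Asns (chr6:7693210-7693309, minus strand): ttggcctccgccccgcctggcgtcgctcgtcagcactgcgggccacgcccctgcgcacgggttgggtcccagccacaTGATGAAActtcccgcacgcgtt
Slc7a11 holds the letters at positions -66 and -47, in opposite orientations, and Asns at -23, counted to the left end of the match from the start. In the window of 250 bases before to 50 after the start, 8 of the 27 list genes with a RefSeq promoter held the element, as did 2.72% of the 8744 tested genes with a promoter and 4.51% of all 27025 genes. Human promoter sequence was not used here.

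**Figure D3:**
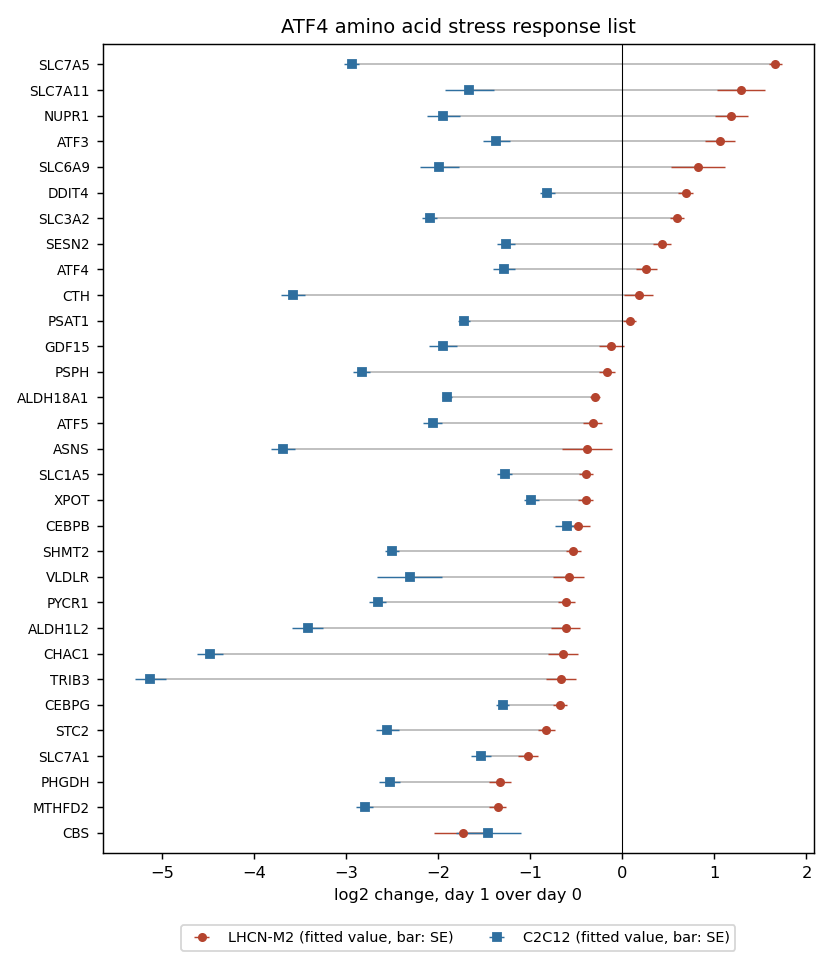
Fitted log2 change of day 1 over day 0 for the 31 tested genes of the ATF4 list, with LHCN-M2 as circles and C2C12 as squares, and bars for the SE. Every square lies left of 0, and circles lie on both sides, from SLC7A5 at 1.66 to CBS at -1.73.

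The cell cycle genes showed the largest difference in the other direction: they fell in the human line, while in the mouse line mitosis genes fell little and replication genes mostly did not fall. All 36 mitosis genes were lower on day 1 in LHCN-M2 (background 35.3%), with a median change of -3.47, and 30 of 36 were lower in C2C12 (background 21.5%), with a median of -0.57. The difference was negative and past the threshold for all 36 (background 35.7%), with a median of -2.78. Of 40 DNA replication genes, 39 were lower in LHCN-M2 (background 35.3%), with a median of -2.34. In C2C12, 14 were higher (background 31.8%) and 4 lower (background 21.5%), with a median of 0.16. The difference was negative and called for 39 and positive and called for 1, POLD2, and 13 replication genes were lower in LHCN-M2 and higher in C2C12. Without replicate 2 of LHCN-M2 day 0, that count was 17, and 18 replication genes were higher and 8 lower in C2C12. The positive difference of POLD2 was lost without replicate 1, 3 or 4 of LHCN-M2 day 0 or replicate 1 or 4 of LHCN-M2 day 1. It was also lost without any 1 library of C2C12 day 0, and without replicate 2 or 4 of C2C12 day 1.

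CDC6 (chr17:40287633-40304657, plus strand), which loads the MCM helicase at origins, had 5.88, 4.78, 5.16 and 5.03 CPM in LHCN-M2 on day 1, against 52.7, 46.9, 46.0 and 49.05 CPM on day 0. In C2C12 the libraries were at 26.0, 24.2, 26.6 and 25.6 CPM on day 1, against 10.2, 11.9, 9.04 and 10.3 CPM on day 0. The days separated in opposite directions, and the difference was -4.53 ± 0.13 (adjusted p = 1.06e-18). MCM5, a helicase subunit, had 13.3 ± 1.25 CPM in LHCN-M2 day 1 and 121 ± 16.7 in day 0, and 91.2 ± 5.81 in C2C12 day 1 and 75.6 ± 5.98 in day 0.

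CCND1, the cyclin that links growth signals to entry into the cycle, had 613, 658, 609.9 and 632 CPM in LHCN-M2 day 1, against 1702, 1469, 1755 and 1828 CPM in day 0. C2C12 moved the other way, with 186, 188, 181 and 174 CPM on day 1, against 86.2, 81.0, 80.3 and 91.7 CPM on day 0 (difference -2.53 ± 0.09, adjusted p = 1.58e-17). CCNE2, a cyclin of S phase entry, changed by -3.06 ± 0.23 in LHCN-M2 and 1.32 ± 0.19 in C2C12. RRM2, the small subunit of ribonucleotide reductase, changed by -3.97 ± 0.17 and 0.46 ± 0.14, and ERCC6L, a helicase of anaphase chromatin bridges, by -4.35 ± 0.15 and 0.23 ± 0.11 (adjusted p = 0.0982 in C2C12, and 0.0492 without replicate 2 of LHCN-M2 day 0). CDK1, the mitotic kinase, had 7.83, 8.96, 5.33 and 6.11 CPM in LHCN-M2 day 1, against 82.0, 96.7, 89.8 and 78.1 CPM in day 0, and in C2C12 127, 124, 118 and 122 CPM in day 1, against 158, 136, 127 and 136 CPM in day 0. That change was -3.62 ± 0.14 in LHCN-M2 and -0.18 ± 0.12 in C2C12, where it did not pass the test (adjusted p = 0.207).

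The list of cell cycle inhibitors and genes of quiescent cells, which also holds the D cyclins CCND1, CCND2 and CCND3, was mixed. CCND1, described above, is counted in it as lower in LHCN-M2 and higher in C2C12. Of 18 tested, 10 were higher and 6 lower in LHCN-M2 (background 28.5% and 35.3%), and 5 higher and 6 lower in C2C12 (background 31.8% and 21.5%). The difference was positive for 10 (background 24.7%) and negative for 5 (background 35.7%). CDKN1C, the p57 inhibitor, had 90.8 ± 12.2 CPM in LHCN-M2 day 1 and 0.689 ± 0.184 in day 0, and 2.26 ± 0.317 in C2C12 day 1 and 3.06 ± 0.332 in day 0. CCNG2, an atypical cyclin of resting cells, had 218 ± 5.42 CPM in LHCN-M2 day 1 and 60.7 ± 5.92 in day 0, and 80.7 ± 1.48 in C2C12 day 1 and 136 ± 5.41 in day 0. GADD45G, a growth arrest gene, had 17.65, 12.4, 16.55 and 12.55 CPM in LHCN-M2 day 1, against 0, 0.212, 0 and 0 CPM in day 0. Its only counts on day 0 were in replicate 2, and it had 83.5 ± 6.57 CPM in C2C12 day 1 and 104 ± 2.41 in day 0 (change -0.32 ± 0.14, adjusted p = 0.0535). Without replicate 2 of LHCN-M2 day 0 that mouse change was the same size and passed (adjusted p = 0.00341), as it also did without replicate 1, 3 or 4 of that group or replicate 1 of LHCN-M2 day 1 (adjusted p of 0.0406 to 0.0492). The mouse libraries were the same in these fits. Because both lines share 1 spread per gene, human libraries enter the p-value of a mouse change.

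Mitosis genes share a promoter element, the cell cycle homology region TTTGAA, and 2 mouse promoters of the list are shown with it in capitals (the 100 bases before the RefSeq start, GRCm38.p6, gene strand).
Cdk1 (chr10:69352913-69353012, minus strand): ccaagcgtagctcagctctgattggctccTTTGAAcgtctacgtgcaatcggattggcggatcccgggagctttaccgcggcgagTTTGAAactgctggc
Cdc20 (chr4:118437344-118437443, minus strand): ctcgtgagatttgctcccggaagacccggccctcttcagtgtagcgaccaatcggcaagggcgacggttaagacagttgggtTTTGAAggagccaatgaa
The matches lie at -71 and -15 in Cdk1 and at -18 in Cdc20. In the window of 250 bases before to 50 after the start, 23 of the 30 mitosis genes with a promoter held these letters on either strand, and so did 6 of 32 replication genes, 13.9% of the tested genes with a promoter and 20.2% of all genes. Both lists fell in LHCN-M2, and the letters describe the promoters of the mouse genes only.

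**Figure D4:**
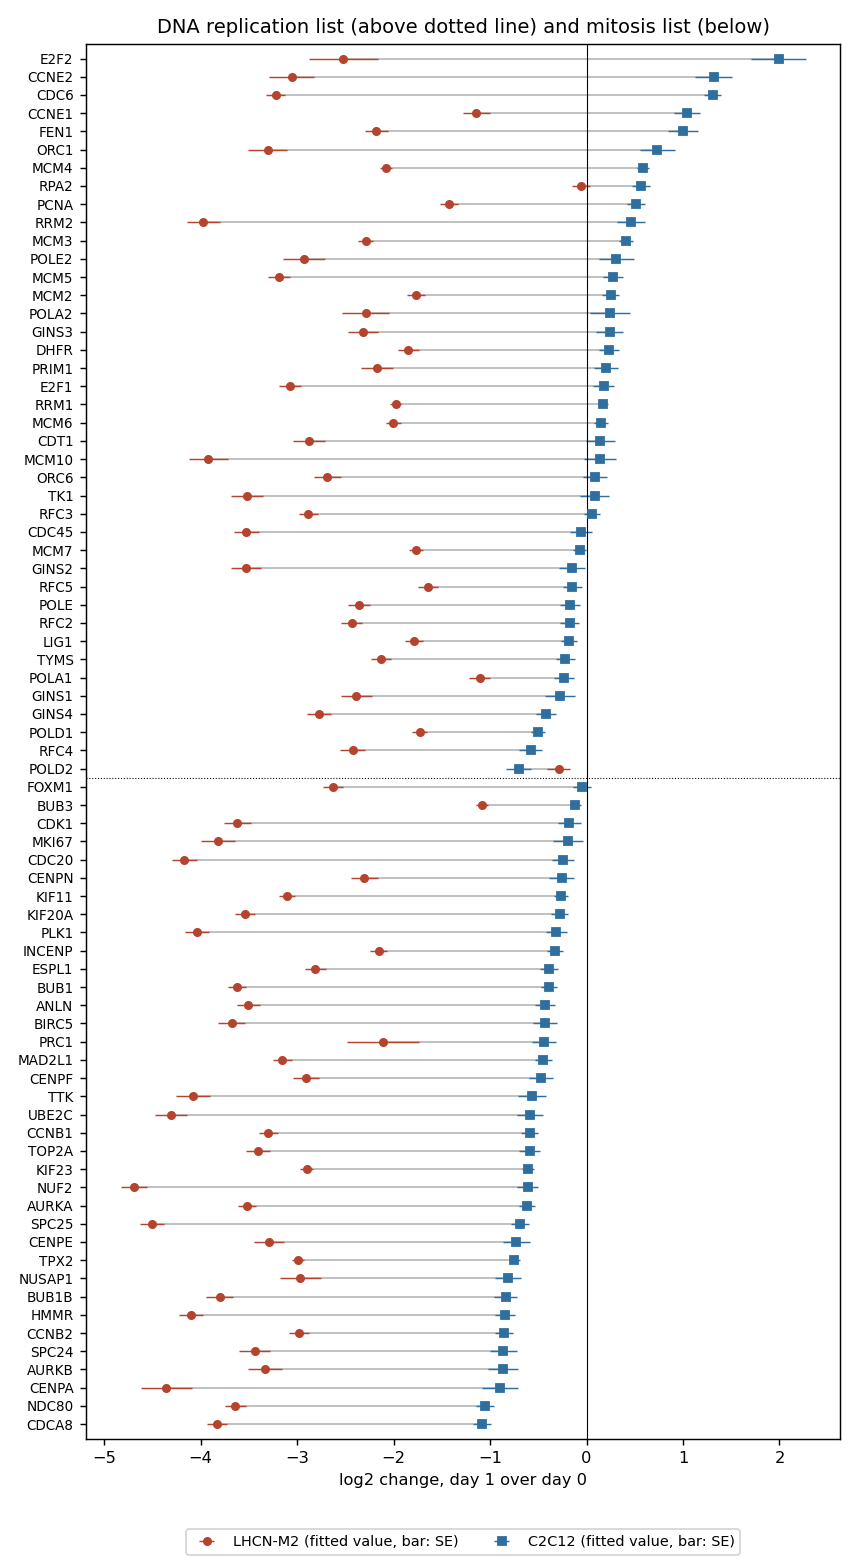
Fitted log2 change of day 1 over day 0 for the 40 DNA replication genes (above the dotted line) and the 36 mitosis genes (below it), with LHCN-M2 as circles, C2C12 as squares and bars for the SE. All circles lie left of 0, and squares lie right of 0 for 14 called replication genes and left of 0 for every mitosis gene, 30 of them called.

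Many muscle genes rose in both lines, and more had a larger change in the human line than in the mouse line. Of 24 tested genes of myogenic regulation and fusion, 16 were higher on day 1 in both lines (background 9.88%), and medians were 1.06 in LHCN-M2 and 0.67 in C2C12. The difference was positive and called for 14 (background 24.7%) and negative for 2 (background 35.7%). MYOG (chr1:203083132-203086036, minus strand) had 89.8, 69.3, 86.0 and 73.7 CPM in LHCN-M2 on day 1, and no count in any of the 4 libraries on day 0. In C2C12 it had 12.8, 16.5, 12.5 and 14.1 CPM on day 1, against 3.825, 3.55, 4.085 and 3.45 CPM on day 0. The human gene was at least 4152-fold higher on day 1, against a floor of 3 counts over the day 0 group, and the mouse gene changed by 1.90 ± 0.10 on the log2 scale.

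MYOD1 (chr11:17719568-17722131, plus strand), the determination factor, had 285, 235, 280.1 and 245 CPM in LHCN-M2 day 1, against 55.0, 68.7, 49.7 and 48.9 CPM in day 0. The mouse line had 7.12, 5.96, 4.76 and 6.55 CPM on day 1, against 2.69, 2.24, 3.58 and 3.00 CPM on day 0, and the change was larger in LHCN-M2 by 1.15 ± 0.19 (adjusted p = 1.17e-05). In 2 genes the lines changed in opposite directions, LHCN-M2 lower, and MYF5 is described here. MYF5 (chr12:80716912-80719673, plus strand), the early determination factor, had 62.55, 69.2, 63.7 and 62.6 CPM in LHCN-M2 day 1, against 281, 249.8, 278 and 265 CPM in day 0. C2C12 had 41.2, 42.7, 34.6 and 37.0 CPM on day 1, against 21.3, 18.4, 21.2 and 20.8 CPM on day 0. The difference was -2.98 ± 0.12 (adjusted p = 4.23e-16).

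MYMK, the fusion protein myomaker, was at least 261-fold higher on day 1 in LHCN-M2, where day 0 had no count. In C2C12 it had 4.00 ± 1.21 CPM on day 1 and 0.669 ± 0.235 CPM on day 0. MYMX, its partner myomerger, changed by 5.08 ± 0.23 in LHCN-M2 and 1.18 ± 0.31 in C2C12, where the days overlapped. MEF2C, a cofactor of the MYOD family, changed by 2.27 ± 0.13 and 0.65 ± 0.16 in the same order.

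Sarcomere genes were higher on day 1 for 34 of 47 tested in LHCN-M2 (background 28.5%) and for 30 in C2C12 (background 31.8%), with 23 higher in both (background 9.88%). The difference was positive for 19 (background 24.7%) and negative for 7 (background 35.7%). Medians were 2.63 in LHCN-M2 and 1.88 in C2C12; with the 13 genes at 0 counts in a group set to their bound or left out, they were 2.63 and 1.57. Many were near the detection floor, with 24 of 47 under 1 CPM on both days in a line. MYLPF, the fast regulatory light chain, had 44.5, 32.7, 44.9 and 40.3 CPM in LHCN-M2 day 1, against 0.108, 0, 0 and 0.0468 CPM in day 0, a sum of 6 counts. In the mouse line it had 11.6, 11.7, 7.44 and 14.3 CPM on day 1, against 2.24, 2.56, 1.28 and 1.87 CPM on day 0. TNNT2 (chr1:201359008-201377762, minus strand), the troponin T of heart and of developing skeletal muscle, had 905, 754, 920.2 and 914.5 CPM in LHCN-M2 day 1, against 11.1, 16.3, 7.05 and 12.9 CPM in day 0. C2C12 had 31.65, 36.2, 34.1 and 45.3 CPM on day 1, against 16.2, 14.0, 14.9 and 16.4 CPM on day 0, and the difference was 4.94 ± 0.22 (adjusted p = 1.18e-15). TTN, the giant elastic protein, changed by 3.37 ± 0.28 in LHCN-M2 and 2.11 ± 0.27 in C2C12. The 1 sarcomere gene of opposite sign was MYPN, at 53.2 ± 1.03 CPM in LHCN-M2 day 1 and 73.3 ± 8.98 in day 0, and with 8 counts in C2C12 day 1 and 0 in day 0; its difference did not pass without replicate 3 of C2C12 day 1 (adjusted p = 0.0979).

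Excitation-contraction coupling genes were higher in LHCN-M2 for 13 of 19 (background 28.5%) and in C2C12 for 12 (background 31.8%). They had a positive difference for 11 (background 24.7%) and a negative one for 3 (background 35.7%). Of the 19, 6 were under 1 CPM on both days in a line. RYR1, the calcium release channel, had 108 ± 17.6 CPM in LHCN-M2 day 1 and 0.0831 ± 0.0233 in day 0, and 2.04 ± 0.465 in C2C12 day 1 and 0.949 ± 0.384 in day 0. Of 13 synapse genes, 10 were higher in each line (background 28.5% in LHCN-M2 and 31.8% in C2C12). The difference was positive for 5 (38.5%, background 24.7%) and negative for 5 (38.5%, near the background of 35.7%). CHRND, a subunit of the acetylcholine receptor, changed by 7.75 ± 0.19 in LHCN-M2, from 12 counts in all on day 0, and by 0.76 ± 0.10 in C2C12. CHRNA1, the subunit that binds the transmitter, had 974, 819.7, 956 and 881 CPM in LHCN-M2 day 1, against 447, 561, 455 and 438 CPM in day 0. C2C12 had 122, 118, 106 and 128 CPM of it on day 1, against 41.1, 42.4, 37.25 and 41.6 CPM on day 0, and here the mouse change was the larger one (difference -0.61 ± 0.11, adjusted p = 2.38e-05).

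The MYOD family is known to bind E-boxes, and 2 mouse promoters of genes that rose in both lines are printed with the E-box CAGCTG in capitals (the 100 bases before the RefSeq start, GRCm38.p6, gene strand).
Mylpf (chr7:127211508-127211607, plus strand): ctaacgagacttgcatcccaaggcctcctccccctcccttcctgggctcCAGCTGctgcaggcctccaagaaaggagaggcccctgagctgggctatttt
Chrna1 (chr2:73580339-73580438, minus strand): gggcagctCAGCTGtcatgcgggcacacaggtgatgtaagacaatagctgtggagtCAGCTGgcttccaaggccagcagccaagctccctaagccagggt
They lie at -51 in Mylpf and at -92 and -44 in Chrna1. Over the window of 250 bases before to 50 after the start, 14 of 37 sarcomere genes and 4 of 8 synapse genes with a promoter held CAGCTG, a palindrome, as did 18.0% of the tested genes with a promoter and 18.3% of all genes. Of the genes of myogenic regulation and fusion, 3 of 15 held it.

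Inhibitors of myogenesis went both ways in the human line and more often up than down in the mouse line. Of 17 tested, 8 were higher and 8 lower in LHCN-M2 (background 28.5% and 35.3%), and 11 higher and 2 lower in C2C12 (background 31.8% and 21.5%). Lower in LHCN-M2 and higher in C2C12 were 5 (ID1, ID2, TGFB1, SMAD7 and SKI, background 11.3%). Without replicate 2 of LHCN-M2 day 0 TGFB1 did not pass in LHCN-M2 (-0.15, adjusted p = 0.109) and the count was 4. ID1 (chr20:31605283-31606515, plus strand) had 3.15, 2.65, 2.07 and 1.89 CPM in LHCN-M2 day 1, against 227, 402, 226 and 206 CPM in day 0. In C2C12 it had 24.3, 20.1, 20.5 and 20.6 CPM on day 1, against 17.6, 12.5, 10.7 and 13.9 CPM on day 0. ID1 is among the genes named for the size of the difference, which required days that do not overlap where called. The difference was -7.41 ± 0.28 (adjusted p = 1.11e-16). ID3 changed by -3.64 ± 0.12 in LHCN-M2 and by 0.12 ± 0.11 in C2C12 (adjusted p = 0.385), and ID2 by -1.29 ± 0.12 and 0.56 ± 0.13.

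HES1 and HEYL, targets of Notch, which also restrains MYOD1, rose in both lines. HES1 had 3.57 ± 0.816 CPM in LHCN-M2 day 1 and 0.218 ± 0.188 in day 0, and 14.6 ± 2.15 in C2C12 day 1 and 4.63 ± 0.659 in day 0. HEYL changed by 2.51 ± 0.12 in LHCN-M2 and 2.76 ± 0.29 in C2C12, a difference of -0.25 ± 0.32 that did not pass the test (adjusted p = 0.531) but did without replicate 2 of C2C12 day 0 (-0.91, adjusted p = 0.0304). In the Notch list of 15, 8 were higher in LHCN-M2 (background 28.5%) and 9 in C2C12 (background 31.8%). The difference was positive for 8 (background 24.7%) and negative for 4 (background 35.7%).

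Among genes that answer growth factors within hours, more fell than rose in the human line and more rose than fell in the mouse line. Of 29 immediate early genes, 17 were lower and 5 higher in LHCN-M2 (background 35.3% and 28.5%), with a median of -0.41. In C2C12, 16 were higher and 6 lower (background 31.8% and 21.5%), with a median of 0.54. Opposite changes with LHCN-M2 lower were called for 11 of them (background 11.3%) and the difference was negative for 19 (background 35.7%). FOSL1 (chr11:65892049-65900573, minus strand), an AP-1 subunit, had 30.2, 28.0, 24.8 and 22.0 CPM in LHCN-M2 day 1, against 196, 184, 214 and 211 CPM in day 0. C2C12 had 7.96, 7.18, 7.79 and 7.97 CPM on day 1, against 3.32, 2.505, 3.13 and 4.26 CPM on day 0 (difference -4.16 ± 0.16, adjusted p = 1.49e-16). DUSP6 and SPRY4, feedback inhibitors of the ERK pathway, took the same course. DUSP6 changed by -1.40 ± 0.10 in LHCN-M2 and 2.03 ± 0.10 in C2C12, and SPRY4 differed by -4.09 ± 0.21. JUN, another AP-1 subunit, changed by -0.23 ± 0.06 in LHCN-M2 and 1.16 ± 0.06 in C2C12.

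Of 23 targets of YAP and SRF, the factors that read cell tension, 10 were lower in LHCN-M2 and higher in C2C12 (background 11.3%), and the difference was negative for 14 (background 35.7%). ANKRD1 had 119 ± 5.18 CPM in LHCN-M2 day 1 and 370.4 ± 31.8 in day 0, and 153 ± 8.08 in C2C12 day 1 and 73.4 ± 2.89 in day 0. ACTB and ZYX, cytoplasmic actin and a focal adhesion protein, differed by -1.22 ± 0.09 and -1.63 ± 0.11. ACTB may share reads with other actin genes.

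Chaperone genes had the same direction of difference. Among 20 heat shock genes the difference was negative for 14 (background 35.7%), with 7 lower in LHCN-M2 and higher in C2C12 (background 11.3%); DNAJA1 changed by -0.41 ± 0.07 in LHCN-M2 and 1.10 ± 0.07 in C2C12, and HSPH1 by -0.36 ± 0.06 and 1.09 ± 0.06. Among 19 chaperones and regulators of the endoplasmic reticulum, 14 were lower in LHCN-M2 (background 35.3%). In C2C12, 9 were higher and 4 lower (background 31.8% and 21.5%), and the difference was negative for 13 (background 35.7%). HSPA5, the chaperone BiP, had 533 ± 12.1 CPM in LHCN-M2 day 1 and 1069.7 ± 45.8 in day 0, and 1083 ± 26.7 in C2C12 day 1 and 894 ± 45.4 in day 0. HERPUD1, which acts in disposal of misfolded proteins, had a positive difference, with changes of -0.25 ± 0.07 in LHCN-M2 and -1.44 ± 0.07 in C2C12.

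**Figure D5:**
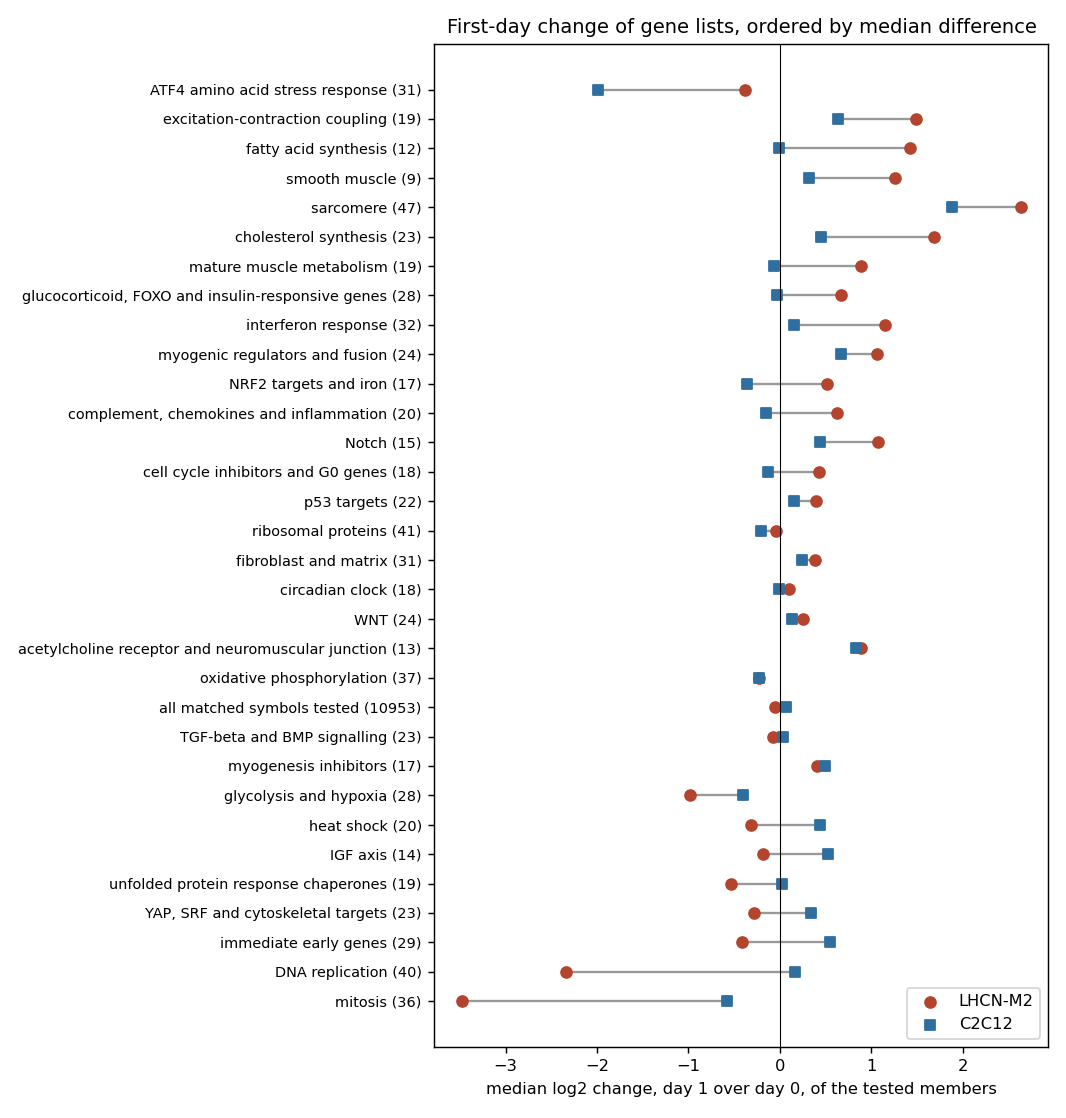
Median log2 change of day 1 over day 0 over the tested members of each of 31 gene lists and of all matched symbols tested (number of genes in brackets), LHCN-M2 as circles and C2C12 as squares, ordered by the median difference. The ATF4 list (median difference 1.80) is at the top and the replication and mitosis lists (-2.45 and -2.78) are at the bottom.

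Most genes of sterol synthesis rose in both lines, and for most the difference was positive. Of 23 tested genes, 22 were higher and 1, PMVK, lower in LHCN-M2, and 19 were higher and 1 lower in C2C12; 19 were higher in both (background 9.88%). Medians were 1.68 in LHCN-M2 and 0.45 in C2C12, and the difference was positive for 18 (background 24.7%) and called negative for none. Without replicate 2 of LHCN-M2 day 0, in which PMVK had 58.4 CPM beside 26.0 to 34.0 in the other libraries of that day, PMVK did not pass (adjusted p = 0.122), so that none was lower in LHCN-M2, and the difference was positive for 21. HMGCS1 (chr5:43289395-43313512, minus strand), which makes the precursor of mevalonate, had 519.6, 568, 524 and 567 CPM in LHCN-M2 day 1, against 58.2, 47.8, 65.0 and 70.4 CPM in day 0. The mouse line had 493, 512, 466 and 505 CPM on day 1, against 338, 303, 326 and 308 CPM on day 0. The days were apart in both lines, and the difference was 2.54 ± 0.11 (adjusted p = 2.11e-15). HSD17B7, an enzyme of the late pathway, rose in both, by 1.91 ± 0.08 in LHCN-M2 and 1.75 ± 0.08 in C2C12 (difference 0.16 ± 0.11, adjusted p = 0.211). That difference passed without replicate 2 of LHCN-M2 day 0 (0.23, adjusted p = 0.0468).

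Fatty acid synthesis was split in the mouse line. Of 12 tested genes, 11 were higher in LHCN-M2, and 6 were higher and 6 lower in C2C12, 5 of them with opposite signs (background 6.42%): FADS1, ACSS2, ME1, ACSL3 and ELOVL5. FASN, fatty acid synthase, rose in both lines, by 1.86 ± 0.09 in LHCN-M2 and 1.27 ± 0.09 in C2C12. ACSS2, which makes acetyl-CoA from acetate, had 109 ± 4.55 CPM in LHCN-M2 day 1 and 22.5 ± 1.51 in day 0, and 21.8 ± 1.33 in C2C12 day 1 and 37.3 ± 2.55 in day 0.

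Genes that respond to glucocorticoids, FOXO factors and insulin were opposite for 12 of 28, with 7 higher (background 6.42%) and 5 lower (background 11.3%) in LHCN-M2. TXNIP and ANGPTL4, described above, are of this list. PIK3IP1 (chr22:31281593-31292534, minus strand), an inhibitor of PI3 kinase, had 57.1, 62.4, 53.7 and 56.5 CPM in LHCN-M2 day 1, against 5.70, 7.53, 4.93 and 5.66 CPM in day 0. C2C12 had 22.5, 22.3, 21.4 and 20.2 CPM on day 1, against 33.1, 30.3, 29.8 and 33.5 CPM on day 0 (difference 3.82 ± 0.15, adjusted p = 2.01e-16). FBXO32, the ubiquitin ligase atrogin-1, changed by 3.63 ± 0.07 in LHCN-M2 and -0.10 ± 0.07 in C2C12 (adjusted p = 0.206), and IRS2, an insulin receptor substrate, by -1.53 ± 0.09 and 0.10 ± 0.09 (adjusted p = 0.413). BCL2L11, the apoptosis gene BIM, is not a member of this list and was named for the size of its difference. It had 67.1 ± 5.86 CPM in LHCN-M2 day 1 and 2.08 ± 0.676 in day 0, and 27.1 ± 1.70 in C2C12 day 1 and 23.2 ± 1.31 in day 0.

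In the IGF axis, the difference was negative for 8 of 14 genes (background 35.7%) and positive for 3, a share near the background of 24.7%. Lower in LHCN-M2 and higher in C2C12 (background 11.3%) were 5: IGF1R, IGFBP2, IGF2BP2, IGF2BP3 and HMGA2. IGFBP5, a binding protein of muscle differentiation, changed by 4.80 ± 0.18 in LHCN-M2 and 0.42 ± 0.14 in C2C12. IGF1R, the receptor, changed by -0.27 ± 0.11 and 0.63 ± 0.12, and its LHCN-M2 days overlapped.

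Of 18 clock genes, 5 were higher in LHCN-M2 and lower in C2C12 (background 6.42%): DBP, PER3, NR1D1, NR1D2 and BHLHE40. NR1D1, a repressor of the clock loop, had 12.5 ± 0.772 CPM in LHCN-M2 day 1 and 6.46 ± 0.683 in day 0, and 12.2 ± 1.05 in C2C12 day 1 and 37.7 ± 3.35 in day 0. CRY1, another repressor, had the reverse pattern, with -0.51 ± 0.10 in LHCN-M2 and 1.06 ± 0.11 in C2C12. The hour of harvest is not given in the labels, so the phase of the clock in each group is unknown.

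Antioxidant and iron genes were higher in LHCN-M2 for 12 of 17 (background 28.5%) and lower in C2C12 for 9 (background 21.5%), with 7 both higher in LHCN-M2 and lower in C2C12 (background 6.42%). HMOX1, heme oxygenase, had 401 ± 21.2 CPM in LHCN-M2 day 1 and 155 ± 26.3 in day 0, and 29.6 ± 3.17 in C2C12 day 1 and 40.6 ± 5.02 in day 0. FTH1, the ferritin heavy chain, differed by 1.46 ± 0.12. TFRC, which imports iron, did not pass the test in LHCN-M2 (0.10 ± 0.09, adjusted p = 0.346) and changed by 1.63 ± 0.10 in C2C12.

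Of the glycolysis and hypoxia genes, 21 of 28 were lower in LHCN-M2 (background 35.3%) and 14 in C2C12 (background 21.5%), 12 in both (background 8.8%), and the difference was negative for 17 (background 35.7%). LDHA, lactate dehydrogenase, changed by -2.25 ± 0.07 in LHCN-M2 and 0.12 ± 0.07 in C2C12 (adjusted p = 0.152). ENO1, an enolase, changed by -1.84 ± 0.09 in LHCN-M2 and 0.47 ± 0.09 in C2C12. VEGFA, the vascular growth factor, fell in both, by 1.44 ± 0.06 on the log2 scale in LHCN-M2 and by 1.28 ± 0.06 in C2C12 (difference -0.16 ± 0.08, adjusted p = 0.078). That difference passed without replicate 2 of LHCN-M2 day 0 (adjusted p = 0.0404) and without replicate 1 of C2C12 day 1 (-0.20, adjusted p = 0.0308).

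Interferon response genes were higher on day 1 for 24 of 32 in LHCN-M2 (background 28.5%) and for 8 in C2C12 (background 31.8%), and the difference was positive for 18 (background 24.7%). The libraries of a day were far apart for these genes. IFIT2, an antiviral protein induced by interferon, had 145, 46.1, 95.9 and 146 CPM in LHCN-M2 day 1, against 11.6, 18.9, 42.0 and 24.4 CPM in day 0. In C2C12 it had 46.2, 68.1, 62.95 and 48.0 CPM on day 1, against 92.4, 54.3, 73.6 and 63.6 CPM on day 0. The days were apart in LHCN-M2 and overlapped in C2C12, and the difference was 2.49 ± 0.42 (adjusted p = 1.61e-05). The count of 18 was 11 without replicate 1 of LHCN-M2 day 1, 9 without replicate 1 of C2C12 day 0 and 11 without replicate 4 of C2C12 day 1.

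Matrix and fibroblast genes went both ways: of 31, 20 were higher in LHCN-M2 (background 28.5%) and 15 in C2C12 (background 31.8%). Opposite signs were called for 12, with 6 higher (background 6.42%) and 6 lower (background 11.3%) in LHCN-M2. DCN, the small proteoglycan decorin, had 306, 292.5, 273 and 274.5 CPM in LHCN-M2 day 1, against 52.8, 59.2, 55.6 and 49.7 CPM in day 0. C2C12 had 166, 168, 139 and 166 CPM on day 1, against 11.98, 9.72, 9.36 and 8.29 CPM on day 0, so decorin rose in both lines and by more in C2C12 (difference -1.62 ± 0.12, adjusted p = 1.84e-11). COL1A1, the main chain of type I collagen, changed by 0.22 ± 0.08 in LHCN-M2, where the days overlapped, and by -0.60 ± 0.08 in C2C12. Fibroblast markers, 8 genes, summed to 941 to 964 CPM in LHCN-M2 day 1 against 281 to 294 in day 0, and to 266 to 295 CPM in C2C12 day 1 against 126 to 146 in day 0. Their part in the other results was not tested.

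Translation and respiration genes moved little, and here the library that stood apart decides the count. The median change of 41 ribosomal protein genes was -0.05 in LHCN-M2 and -0.20 in C2C12, and the difference passed the threshold for 5; without replicate 2 of LHCN-M2 day 0 it did for 37, and with limma's sample weights for 36. Without that library the LHCN-M2 median turned to 0.20, 23 genes were higher in LHCN-M2 where 2 were with it, 30 were lower in C2C12 where 10 were, and 16 were of opposite sign where none was. RPL3 had 1922, 1849, 1776 and 1827 CPM in LHCN-M2 day 1, against 1555, 2395, 1421 and 1467 CPM in day 0, where the 2395 is that library. C2C12 had 941, 1003, 944 and 917 CPM on day 1, against 1525, 1356, 1386 and 1318 CPM on day 0. Of 37 respiratory chain genes the difference was positive for 6 (background 24.7%) and negative for 4 (background 35.7%). It was positive for 12 without that library, where the LHCN-M2 median was 0.04 in place of -0.23. Such genes have many processed pseudogenes that may share reads.

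The genes that changed alike in both lines were partly muscle genes and partly not. Of 1082 genes higher in both, the difference was called positive for 367, negative for 126 and not called for 589; of 964 lower in both, it was positive for 114, negative for 354 and not called for 496. The 10 named as higher in both were MYLPF, DCN, GPR153, TTN, GFRA1, MYOG, OLFML2A, HSD17B7, DUSP27 and TMEM119. GPR153, an orphan receptor, had 118 ± 12.4 CPM in LHCN-M2 day 1 and 19.6 ± 1.20 in day 0, and 51.6 ± 2.28 in C2C12 day 1 and 11.1 ± 0.237 in day 0. TMEM119, a membrane protein known in bone and muscle differentiation, changed by 4.40 ± 0.11 in LHCN-M2 and 1.62 ± 0.09 in C2C12. GFRA1, the receptor subunit for the neurotrophic factor GDNF, rose by more in the mouse line (1.95 ± 0.12 in LHCN-M2 and 3.24 ± 0.15 in C2C12). OLFML2A, a secreted olfactomedin protein, differed by 2.66 ± 0.17, and DUSP27, an inactive phosphatase of muscle, by 1.00 ± 0.17.

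The 10 named as lower in both were PTX3, NT5E, EIF4EBP1, STEAP1, MTHFD2, PHGDH, VEGFA, NEIL3, ENPP1 and NDRG1. PTX3, a secreted pentraxin of innate immunity, had 36.9, 30.25, 23.95 and 27.7 CPM in LHCN-M2 day 1, against 119, 131, 113 and 120.0 CPM in day 0. C2C12 had 62.7, 60.0, 62.1 and 57.0 CPM on day 1, against 285, 272, 272 and 238 CPM on day 0. The changes of -2.03 ± 0.10 and -2.14 ± 0.10 differed by 0.11 ± 0.14, which did not pass the test (adjusted p = 0.486). NT5E, the ecto-enzyme that makes adenosine, changed by -2.19 ± 0.09 in LHCN-M2 and -1.98 ± 0.11 in C2C12 (difference -0.21 ± 0.14, adjusted p = 0.21, and -0.32 with adjusted p = 0.0356 without replicate 3 of C2C12 day 1). EIF4EBP1, a repressor of translation under mTOR, had a difference of 0.12 ± 0.22 (adjusted p = 0.646), and of 0.46 (adjusted p = 0.00118) without replicate 2 of LHCN-M2 day 0, in which it had 81.4 CPM beside 39.3 to 43.9 in the other libraries of that day. STEAP1, a metalloreductase, and NDRG1, a stress-responsive gene, differed by -0.06 ± 0.15 and -0.20 ± 0.10 without passing the test (adjusted p = 0.75 and 0.0803). NDRG1 passed without replicate 1 of LHCN-M2 day 0 (adjusted p = 0.0394) and without replicate 3 of C2C12 day 1 (adjusted p = 0.0311). ENPP1, another ecto-enzyme of nucleotides, and NEIL3, a DNA glycosylase of dividing cells, fell by more in LHCN-M2, with differences of -1.25 ± 0.11 and -2.73 ± 0.21.

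Among the remaining genes that reached 10 CPM on a day of each line, the largest differences were positive for GADD45G, CHRND, SLC12A7, TNNT2 and BCL2L11 and negative for ID1, HAS1, ERCC6L, CDC6 and RRM2. SLC12A7, a potassium-chloride cotransporter, had 40.2, 29.8, 50.9 and 37.4 CPM in LHCN-M2 day 1, against 0.460, 0.371, 0.103 and 0.281 CPM in day 0. The mouse days overlapped, with 83.8, 75.3, 81.7 and 74.6 CPM on day 1, against 59.9, 77.7, 69.4 and 78.4 CPM on day 0, and the difference was 6.88 ± 0.25 (adjusted p = 4.67e-17). HAS1, a hyaluronan synthase, had 0.372 ± 0.130 CPM in LHCN-M2 day 1 and 13.7 ± 1.91 in day 0, and 21.3 ± 1.56 in C2C12 day 1 and 13.7 ± 0.465 in day 0 (difference -5.84 ± 0.25, adjusted p = 7.19e-16).

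The lists not described above varied in their differences. The median difference was 1.38 for smooth muscle genes, 1.02 for mature muscle metabolism and 0.73 for inflammation genes. It was 0.32 for p53 targets, 0.045 for WNT genes and -0.22 for TGF-beta and BMP signalling. For WNT genes the difference was positive for 8 of 24 and negative for 6, for TGF-beta and BMP signalling positive for 8 of 23 and negative for 11, for p53 targets positive for 9 of 22 and negative for 2, and for smooth muscle genes positive for 5 of 9 and negative for 1. For inflammation genes it was positive for 9 of 20 and negative for 3, and for genes of mature muscle metabolism positive for 10 of 19 and negative for 1 (2 without replicate 2 of LHCN-M2 day 0), with 10 of those 19 under 1 CPM on both days in a line. Against the background of 24.7% positive and 35.7% negative, the counts for WNT and for TGF-beta and BMP signalling are near what all genes gave.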

How the data were processed

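What the authors deposited is a count of reads for every gene and library of poly-A captured RNA, in whole numbers without normalization. The submitters' processing notes name featureCounts 2.0.6, StringTie 2.2.3, HISAT2 2.2.1 and fastp as tools, and as builds GRCh38, hg38 and mm10. No annotation release or strand setting is given, so reads of overlapping, antisense or near-identical genes cannot be told apart. Human positions were read from the LHCN-M2 table.

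Genes were kept where edgeR's filterByExpr kept them in both lines. TMM factors were computed within each line, and edgeR 4.0.16 (R 4.3.3) fitted 1 quasi-likelihood model to all 24 libraries, later days included, with 1 coefficient per group and no replicate block. Multiple testing was handled by the Benjamini-Hochberg method across all 10953 genes, at 0.05. The interaction test was tried on simulated counts with a known difference in 100 genes of each size. It recovered 80% of log2 differences of 1 and 27% of those of 0.5, with 5 false calls. Both lines were simulated with the same spread per gene, so lines of unequal spread were not tested. All other genes were simulated without a change between days, whereas 60.3% of the genes passed in the data. Recovery and false calls at such a share were not tested. Named genes had at least 10 CPM on a day of each line and no overlap of the days where called: 10 of each opposite and shared kind by the smaller absolute change, and 5 of each sign among the remaining differences. Other genes are examples from the 31 lists. The members, lists and examples were chosen with earlier results of these data known. Alternatives used limma 3.58.1 and DESeq2 1.42.0, other normalizations, filters and sets of libraries. The floor of 3 counts covers counting error only.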

Additional observations from a re-analysis of the deposited data

Results flagged for a closer look

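Many of the 50 named genes differed between LHCN-M2 and C2C12 in their change from day 0 to day 1 past the threshold (edgeR quasi-likelihood interaction test), as did 60.3% of all genes tested. Of the 50, 30 had been chosen for opposite changes or for the size of the difference, so that their passing was set by the choice and how many passed is no result. The log2 difference was positive for 24: 12.73 for MYOG, 8.40 for GADD45G, 8.34 for COL14A1, 7.44 for MYLPF, 6.99 for CHRND, 6.88 for SLC12A7, 4.94 for TNNT2, 4.77 for BCL2L11, 4.60 for SLC7A5, 4.34 for DBP, 4.18 for CXCL12, 4.12 for TXNIP, 3.57 for ANK2, 3.49 for LPAR4, 3.16 for TRAPPC6A, 2.95 for SLC7A11, 2.78 for TMEM119, 2.73 for PER3, 2.66 for OLFML2A, 1.45 for MTHFD2, 1.26 for TTN, 1.20 for PHGDH, 1.00 for DUSP27, 0.38 for GPR153. The value of MYOG is fitted against 0 counts and is no fold. That of GADD45G rests on 8 counts on LHCN-M2 day 0, in replicate 2 alone, without which its day 0 is also at 0 counts. It was negative for 19: -10.02 for ANGPTL4, -7.41 for ID1, -5.84 for HAS1, -4.58 for ERCC6L, -4.53 for CDC6, -4.44 for RRM2, -4.29 for HMGA2, -4.02 for SEMA7A, -3.96 for ETV4, -3.70 for ARHGAP22, -3.56 for PLXNA2, -3.29 for CTNNAL1, -3.28 for KLF2, -3.11 for CORO2B, -3.09 for TNFRSF12A, -2.73 for NEIL3, -1.62 for DCN, -1.29 for GFRA1, -1.25 for ENPP1.

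In 13 of 200 groups of 4 libraries examined for the named genes, 1 library lay far from the other 3; chance gives this in about 1 of 20 groups. Replicate 2 of LHCN-M2 day 0 was that library in 4 of them, with 205.2 CPM of ANGPTL4, 81.42 of EIF4EBP1, 0.212 of GADD45G and 402.3 of ID1. Replicate 3 of LHCN-M2 day 0 had 5.626 CPM of COL14A1 and 130.6 of TXNIP. In LHCN-M2 day 1, replicate 1 had 43.95 CPM of HSD17B7 and replicate 2 had 754.2 of TNNT2. In C2C12 day 1, replicate 1 had 13.16 CPM of GFRA1, 124.5 of VEGFA and 24.26 of ID1, and replicate 3 had 139.2 of DCN. Replicate 3 of C2C12 day 0 had 6.411 CPM of DUSP27.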

How the results depend on the processing

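Each count over all genes stayed within 1.5 times its main value under every alternative run. Leaving out 1 library gave 2603 to 3138 positive and 3622 to 4078 negative differences, 653 to 921 and 1105 to 1480 opposite changes, and 986 to 1254 and 835 to 1051 shared ones. The upper ends for the opposite changes came without replicate 2 of LHCN-M2 day 0. Other normalizations, filters and tools gave 2508 to 3133 positive and 3398 to 4274 negative differences. With the replicate block, 2643 differences were positive and 3782 negative, with 677 and 1173 opposite changes; libraries of the same number did not deviate together (correlations of -0.147 to 0.0789 in LHCN-M2 and -0.00916 to 0.0309 in C2C12), so the numbers were not taken as pairs. Of the opposite calls, 466 of 703 and 824 of 1240 held under every alternative. Some differences turned sign, and the cause was not tested. STEAP1 was at 0.0374 with factors from matched symbols and ranged from -0.1308 to 0.0963 when 1 library was left out, the highest without replicate 3 of LHCN-M2 day 1. PTX3 ranged from -0.006, without replicate 1 of LHCN-M2 day 1, to 0.2355, OAS2 from -0.5645 to 0.2858, without replicate 3 of LHCN-M2 day 0, and HEYL from -0.9138 to 0.066, without replicate 4 of C2C12 day 0. None of these 4 genes had a difference past the threshold in the full fit, and HEYL had one without replicate 2 of C2C12 day 0 (-0.9138, adjusted p = 0.0304). Counts limit the genes near the detection floor, where differences may have been missed.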
